A study of Mus musculus with 18 samples.

Results

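Ribosome biogenesis and nucleolar genes were followed in RNA-Seq of mouse small intestinal crypts after deletion of Prmt1, the main asymmetric arginine methyltransferase of mammalian cells. The group comprised 35 genes, given as a list of gene names that uses no measured value, and each matched 1 row of a count table of 55335 genes. They were ordered by the step at which their products act: 3 core proteins of box C/D snoRNPs, 4 of box H/ACA snoRNPs, 5 genes of RNA polymerase I transcription, 5 abundant nucleolar proteins, 10 genes of the small subunit processome and 40S maturation, and 8 genes of 60S assembly. All mice carried LoxP sites in both copies of Prmt1 and received tamoxifen, at 2 mg per injection. KO mice also carried CreERT2 under the villin promoter, which is active in the intestinal epithelium, and WT mice were littermates without Cre. Crypts were taken on day 2 (after 2 injections) and on days 7 and 14 (after 5 injections), with 3 libraries per genotype and day and 18 libraries in all. The mice were adults of 8 to 12 weeks and of both sexes, and the study matched KO and control mice for age and sex. Only KO mice carried Cre, so effects of Cre itself and of the loss of Prmt1 cannot be told apart. Each library came from the crypts of 1 mouse, and in such bulk RNA fewer cells of a type and less RNA per cell cannot be told apart.

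Ribosomes are made in the nucleolus, where RNA polymerase I transcribes the ribosomal DNA, small nucleolar ribonucleoproteins (snoRNPs) guide chemical modification of the precursor RNA, and large assemblies of processing factors cleave it and fold it with ribosomal proteins into the 2 subunits. Rapidly dividing cells such as those of the crypt base need many ribosomes, and their nucleoli are correspondingly large. Several nucleolar proteins, among them fibrillarin (Fbl), nucleolin (Ncl) and Gar1, carry repeats of arginine and glycine that PRMT1 methylates. That modification acts on the proteins, whereas the libraries described here measured only the RNA of their genes.

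The depth was 12844642 to 31493484 counts per library, and the 35 genes together held 0.156% to 0.229% of them. All 35 passed the filter on low counts, by which 21349 genes were tested. The targeted gene checked the labels: Prmt1 stood at 54.1%, 66.4% and 60.9% of the WT mean on days 2, 7 and 14, with no overlap between the KO and WT libraries on any day (adjusted p = 0.0264, 0.00675 and 0.00329, from the quasi-likelihood test of edgeR after Benjamini-Hochberg adjustment). The day 2 call of Prmt1 was narrow: it was lost with library totals (adjusted p = 0.0582), with only the groups compared (0.0939), with a replicate block (0.0531) and in all 6 fits that left out 1 library (up to 0.183). On day 7 Prmt1 lost its call without KO replicate 1 (adjusted p = 0.0655, edgeR). The counts cover the whole gene, exons outside the LoxP sites included. All 9 epithelial markers of a fixed list, Epcam and Vil1 among them, were detected in every library.

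In WT crypts nearly all of these genes stood above the level of a typical detected gene. Levels were compared between genes as FPKM, fragments scaled to annotated exon length and library size, and 33 of the 35 had a mean over the 9 WT libraries above 3.30 FPKM, the median of all genes tested. Npm1 (nucleophosmin, an abundant histone and ribosome chaperone of the nucleolus) led the order with 77.1 ± 17.7 FPKM (SD, n = 9 WT libraries of 3 days), and its lowest WT library exceeded the highest value of the next gene, 29.9. The next 4 genes were Nhp2 with a mean of 22.7 FPKM, Ncl with 21.8, Nop10 with 19.8 and Mybbp1a with 19.5. At the other end stood Wdr12 with 2.03 FPKM and Polr1e with 2.01. The order among neighbours was mostly not resolved: the WT ranges overlapped in 32 of the 34 pairs of neighbours, the exceptions being Npm1 above Nhp2 and Nle1 above Wdr12. Exon length was taken from the annotation, which for Wdr12 held 11955 bases and for Ncl 10188. Any rarely used exons would lower the FPKM of such genes, and exon use was not measured.

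**Figure D1:**
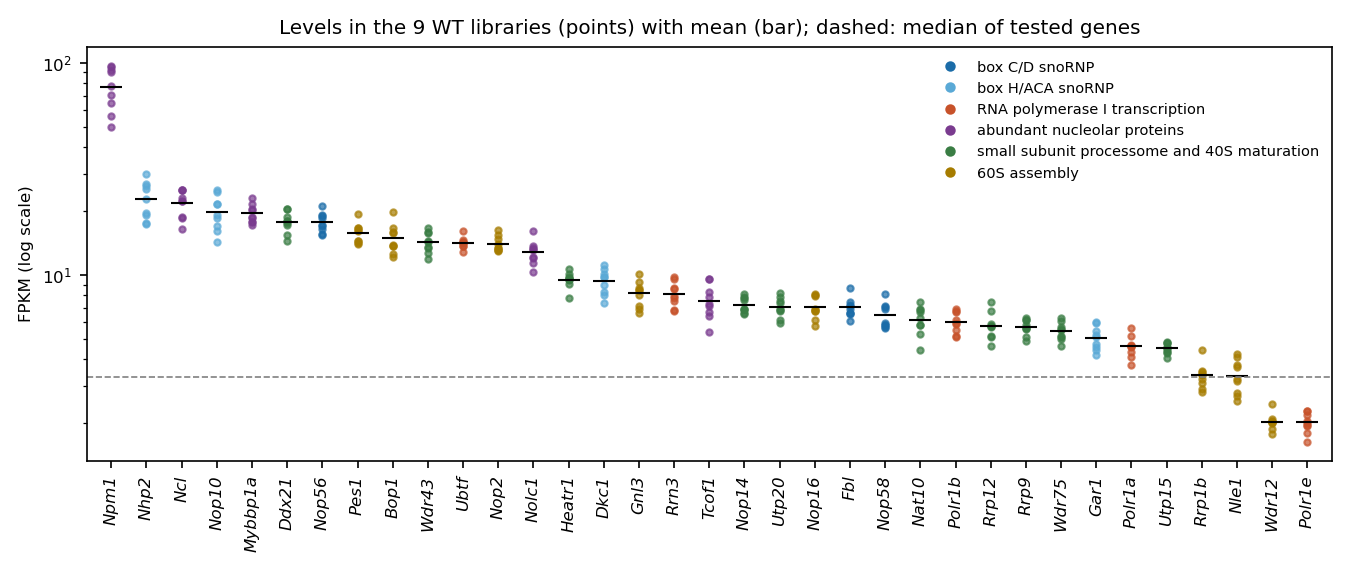
FPKM on a log scale for each of the 35 genes in the 9 WT libraries (points, coloured by role) with the mean over them (bar), ordered by the mean. The dashed line is the median of all tested genes, 3.30 FPKM. Npm1 stands alone at the top with a mean of 77.1 FPKM, and Wdr12 and Polr1e lie lowest.

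The spread between mice of the same group was described for each member, and differences in it between genes were not tested. The coefficient of variation of CPM, the counts scaled to the TMM-corrected library size, averaged over the 6 groups of 3, was lowest for Ubtf at 7.29%, Heatr1 at 7.74% and Mybbp1a at 8.33%, and highest for Nop10 at 21.1% and Nhp2 at 19.6%. Ubtf encodes the factor that binds the ribosomal DNA promoter and Heatr1 and Mybbp1a encode large nucleolar proteins, whereas Nop10 and Nhp2 encode small core proteins of box H/ACA snoRNPs.

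The first comparison asked whether the RNA of the nucleolar machinery had changed 2 days after tamoxifen began. None of the 35 genes differed between KO and WT in the quasi-likelihood test of edgeR at an adjusted p under 0.05, where 0.0328% of all tested genes did. DESeq2 also called 0 of them, where it called 0.0495% of the genes it tested, and 5 had an unadjusted p under 0.05, where 3.33% of all tested genes did, all with the higher level in KO: Nop2, Tcof1, Nop14, Nat10 and Rrp9. The log2 fold change lay above 0 in 32 of the 35, where it did so in 49.1% of all tested genes, and its median was 0.17 against -0.0048 over all tested genes. In 13 genes every KO library lay above every WT library and in 0 every KO library lay below, where 4.3% and 3.86% of all tested genes separated in those directions. The 95% interval of the log2 fold change stayed between -1 and 1 for all 35, with a median width of 0.29 to each side.

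The members above 0 on day 2 ran through every role. The largest values were 0.41 for Nop2, 0.34 for Tcof1 (treacle, a nucleolar phosphoprotein that links RNA polymerase I transcription with snoRNPs) and 0.33 for Nat10 (an acetyltransferase of ribosomal RNA), each with an adjusted p of 0.999 (edgeR). Tcof1 measured 28.4, 33.6 and 35.1 CPM in the WT libraries and 39.1, 38.3 and 45.2 CPM in the KO libraries. The groups did not overlap for Tcof1, but WT replicate 1 lay well below the other two. All 10 processome genes and all 8 genes of 60S assembly had values above 0, with medians of 0.19 and 0.23. The 3 members below 0 were Nop10, Fbl and Npm1. KO replicate 2 stood lower than the other KO libraries of that day: the median of the 35 genes there, as log2 CPM minus the WT mean, was 0.034, against 0.18 in replicate 1 and 0.25 in replicate 3, and WT replicate 2 was at 0.088.

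On day 7, 4 of the 35 genes were called, all higher in KO than in WT crypts. Nop2, Ncl, Wdr12 and Ddx21 stood at 1.82-fold, 1.48-fold, 1.38-fold and 1.30-fold of WT, and none of the 35 was called lower. These 4 are 11.4% of the 35, while 17.3% of all tested genes were called that day, 7.11% as higher and 10.2% as lower. With library totals in place of TMM, 871 of all tested genes were called higher and 3050 lower, against 1517 and 2173, and Nop2 was the only member called. The median log2 fold change of the 35 was 0.15 against 0.016 over all tested genes, and 31 of the 35 lay above 0, where 51.6% of all tested genes did. With library totals both medians were lower, at 0.0027 and -0.14. As log2 CPM minus the WT mean, the library medians of the 35 were 0.078, 0.31 and 0.12 in KO replicates 1 to 3. They were -0.097, 0.075 and 0.0033 in WT replicates 1 to 3, so WT replicate 2 lay close to KO replicate 1. The KO libraries lay wholly above the WT libraries in 7 genes (Nop2, Ncl, Wdr12, Ddx21, Gar1, Rrp9 and Heatr1) and wholly below in 0, against 15.9% and 17.7% of all tested genes.

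Nop2 encodes a methyltransferase of cytosine in the large ribosomal RNA and belongs to the early 60S precursor. On day 7 it measured 37.0, 42.7 and 41.0 CPM in WT replicates 1 to 3 and 70.9, 75.1 and 73.8 CPM in the KO replicates. The lowest KO library lay far above the highest WT library. The log2 fold change was 0.87 ± 0.13 (SE), with a 95% interval of 0.59 to 1.14 and an adjusted p of 0.00019 (edgeR, Benjamini-Hochberg adjustment). Of the 35, Nop2 was the only one whose interval on day 7 reached past 1, and it was the only one still called in all 6 fits that left out 1 library of the comparison.

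Nop2 was not called on day 2 and was called higher again on day 14. On day 2 Nop2 measured 36.1, 37.0 and 38.9 CPM in WT and 40.01, 54.7 and 54.3 CPM in KO. KO replicate 1 of day 2 stood close to the WT libraries, although the groups did not overlap (log2 fold change 0.41 ± 0.13 (SE), adjusted p = 0.999, edgeR). On day 14 the values were 36.1, 45.0 and 35.8 CPM in WT and 64.3, 49.3 and 56.4 CPM in KO, again without overlap. The log2 fold change of day 14 was 0.54 ± 0.13 (SE) with an adjusted p of 0.0159 (edgeR), and it was no longer called without KO replicate 1, WT replicate 1 or WT replicate 3 (adjusted p up to 0.0886). The KO effect of day 7 exceeded that of day 2 by 0.45 on the log2 scale with an adjusted p of 0.199, and day 14 minus day 7 gave -0.33 with an adjusted p of 0.999, so a change in size between days was not shown.

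Nop2 lies on chromosome 6 at 125131909 to 125144753 (mm10, plus strand), within a stretch that stood apart on day 2. Between 125000001 and 135000000 on that chromosome, bounds set after the values were seen, 12 of the 117 tested genes (10.3%) had an unadjusted p under 0.01 on day 2, against 0.48% of the tested genes elsewhere and 6 of the 985 in the rest of chromosome 6. On day 7 there were 28 of 117 inside (23.9%) and 3824 of 21232 outside (18%), and on day 14 there were 22 of 117 (18.8%) and 2389 of 21232 (11.3%). The rest of chromosome 6 held 191 and 129 of its 985 tested genes on days 7 and 14. The part of this neighbourhood in the Nop2 values was not tested.

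Wdr12 encodes a WD-repeat protein that acts with Pes1 and Bop1 as the PeBoW complex of 60S assembly. On day 7 its WT libraries held 24.5, 24.03 and 24.2 CPM and its KO libraries 29.2, 33.1 and 38.1 CPM. On day 14 they held 29.5, 24.1 and 22.3 CPM in WT and 39.7, 32.6 and 33.5 CPM in KO. The KO libraries lay above the WT libraries on both days, more closely on day 14, where WT replicate 1 came near the lowest KO library. The log2 fold changes were 0.46 ± 0.13 (SE, adjusted p = 0.0176) on day 7 and 0.48 ± 0.13 (SE, adjusted p = 0.0255) on day 14 (edgeR, Benjamini-Hochberg adjustment). On day 2 it was 0.13 with overlapping groups. The day 7 call was lost without KO replicate 3 or any 1 of the WT libraries (adjusted p up to 0.0607) and the day 14 call without KO replicate 1, WT replicate 2 or WT replicate 3 (adjusted p up to 0.133). The day 14 call of Wdr12 was also lost with library totals, without a filter on low counts and with only the groups compared.

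The partners of Wdr12 were not called on either day. On day 7 the log2 fold change of Pes1 was 0.083 (95% interval -0.18 to 0.35) and that of Bop1 was 0.24 (95% interval -0.092 to 0.56), and on day 14 Pes1 was at -0.084 and Bop1 at 0.16. Of the 6 annotated genes that match Wdr12 at 95% identity or more over at least 200 bases, the longest matches are Gm4879 and the locus annotated as Vmn1r88, which match its transcripts over 1272 and 1377 bases at 97.7% and 97.2% identity. Each of these held 1 to 6 counts per library, against 376 to 944 for Wdr12, and multiply aligned pairs were left out of the counts, so reads of the matching exons may be missing from Wdr12 in all groups. Such matches were also found for Nop56 (6 genes), Fbl and Pes1 (2 each) and Ddx21 (1), and their counts carry the same uncertainty.

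Ncl encodes nucleolin, one of the most abundant RNA-binding proteins of the nucleolus. On day 7 it measured 190, 226 and 167 CPM in WT and 291, 303 and 269 CPM in KO, a clear separation (log2 fold change 0.56 ± 0.15 (SE), adjusted p = 0.0130, edgeR). The call was lost without KO replicate 2, WT replicate 1 or WT replicate 3, with an adjusted p of up to 0.0742. In the WT libraries of day 2 it had stood at 256, 256 and 228 CPM, and in those of day 14 at 235, 255 and 188 CPM. For Ncl the WT libraries of day 7 had the lowest mean of the WT groups, and the KO libraries of day 7 lay above the WT libraries of day 2 as well. The KO effect on day 2 was 0.10 and on day 14 it was 0.15, with adjusted p of 0.999 and 0.619 (edgeR).

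Ddx21, a DEAD-box RNA helicase of the nucleolus that takes part in ribosomal DNA transcription and early processing, barely passed the threshold. On day 7 it measured 79.4, 92.5 and 90.9 CPM in WT and 119, 124 and 99.2 CPM in KO, and KO replicate 3 lay close to the WT libraries. The log2 fold change was 0.38 ± 0.13 (SE) with an adjusted p of 0.0495 (edgeR), and the call was lost on leaving out any library of the comparison but KO replicate 3. It was also lost in 6 of the 8 other fits, with an adjusted p of up to 0.307, and was kept with DESeq2's Wald test and with the sex-specific genes kept. On day 2 its KO libraries, at 108, 112 and 115 CPM, also lay above the WT libraries, at 93.1, 106 and 96.8 CPM, with a log2 fold change of 0.18 that was not called. On day 14 the log2 fold change was -0.03 and the groups overlapped.

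Just past the threshold stood Npm1 and Gar1, with adjusted p of 0.0506 and 0.0666 on day 7 (edgeR); both were singled out after their values were seen. Npm1 measured 149, 240 and 133 CPM in WT and 278, 293 and 195 CPM in KO. The groups overlapped because WT replicate 2 lay above KO replicate 3, and the WT libraries of day 2, at 253, 258 and 247 CPM, lay between KO replicate 3 of day 7 and its other KO libraries. DESeq2's Wald test called Npm1 together with the 4 genes above, where it called 16.5% of the genes it tested. Of the edgeR settings that kept every library of the comparison, only a replicate block (adjusted p = 0.0349) and no filter on low counts called Npm1. Npm1 has 5 annotated near-identical copies of other names, each with at most 135 counts in a library against 2492 to 8352 for Npm1. Gar1, a core box H/ACA protein, measured 8.71, 8.05 and 7.18 CPM in WT and 9.12, 11.6 and 11.7 CPM in KO, with KO replicate 1 close to the WT libraries.

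**Figure D2:**
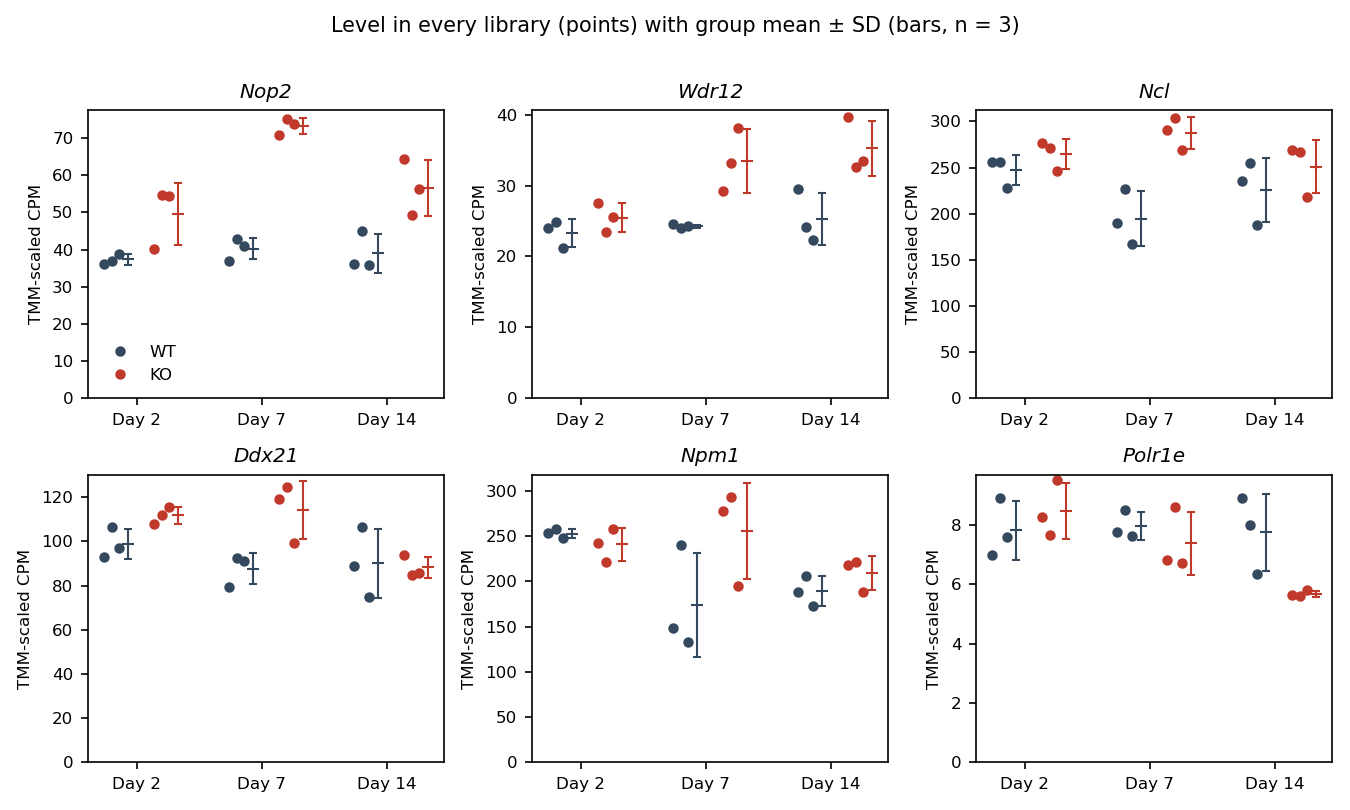
TMM-scaled CPM of 6 of the genes in every library (points) with group means and SD (bars, n = 3), WT in dark blue and KO in red, on days 2, 7 and 14; every axis starts at 0. The KO libraries lie above the WT libraries on all 3 days for Nop2, on days 7 and 14 for Wdr12, on days 2 and 7 for Ddx21 and on day 7 for Ncl. For Npm1 the groups overlap, and for Polr1e the KO libraries of day 14 lie lowest.

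The remaining roles held no gene called on any day. Among box C/D snoRNP genes, Fbl (the ribose methyltransferase) was at -0.095, 0.074 and -0.042 on the log2 scale on days 2, 7 and 14, and the values of Nop56 and Nop58 lay between 0.042 and 0.19. Among box H/ACA genes, Dkc1 (the pseudouridine synthase) was at 0.11, 0.021 and -0.092. For the RNA polymerase I genes the day 7 values ran from -0.29 for Polr1b, a large catalytic subunit, to 0.28 for Rrn3, which carries the polymerase to the promoter. Their median was 0.015, the lowest of the 6 roles that day, and the difference between roles was not tested. Polr1a, the largest subunit, was at 0.041, 0.068 and 0.18 on days 2, 7 and 14.

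The other members of the roles that held a called gene were not called on any day either. Among abundant nucleolar proteins, Nolc1, which shuttles snoRNPs, was at 0.19, 0.24 and -0.081 on days 2, 7 and 14, and Mybbp1a was at 0.21, 0.23 and 0.13. Of the processome genes, the subunits Utp15, Utp20, Wdr43 and Wdr75 ranged from -0.22 (Wdr75 on day 7) to 0.26 (Utp20 on day 14), and Rrp12, which takes part in export and maturation of the subunits, was at 0.22, 0.12 and 0.09. Of the genes of 60S assembly, Nop16, Gnl3 (nucleostemin) and Rrp1b were at 0.23 each on day 2, at 0.10, -0.072 and 0.078 on day 7, and at -0.015, 0.056 and 0.17 on day 14.

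By day 14 the group as a whole was close to WT. Nop2 and Wdr12 were higher in KO, 5.71% of the 35, where 7.92% of all tested genes were called, 3.23% as higher and 4.69% as lower. None of the 35 was called lower, and DESeq2 called the same 2 genes, where it called 9.27% of the genes it tested. The values lay above 0 in 21 of the 35, where 50.2% of all tested genes did, with a median of 0.056 against 0.0022 over all tested genes, and the 95% interval stayed between -1 and 1 for all 35. The groups separated in 4 genes, with Nop2, Wdr12 and Nat10 higher and Polr1e lower in KO, where 26.5% of all tested genes separated.

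Polr1e encodes the subunit of RNA polymerase I known as PAF53, and it had the largest decrease in value, chosen here after the values were seen. On day 14 it measured 8.91, 7.98 and 6.35 CPM in WT and 5.64, 5.61 and 5.80 CPM in KO, from 86 to 245 counts per library over the series. The KO libraries lay below all WT libraries. The log2 fold change was -0.44 ± 0.17 (SE), and it did not pass the threshold (adjusted p = 0.118, edgeR).

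The day 14 values leaned on single WT libraries. In WT replicate 3 all 35 genes lay below the WT mean of that day, with a median of -0.19 on the log2 scale, while WT replicate 2 had a median of 0.19. The 3 KO libraries had medians of 0.14, 0.028 and -0.0038, all inside the range of the WT libraries. Without WT replicate 3 the median log2 fold change of the 35 was -0.021 and 0 were called, and without WT replicate 2 the median was 0.14 and 1 was called, Nop2. Without KO replicate 1 none was called.

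**Figure D3:**
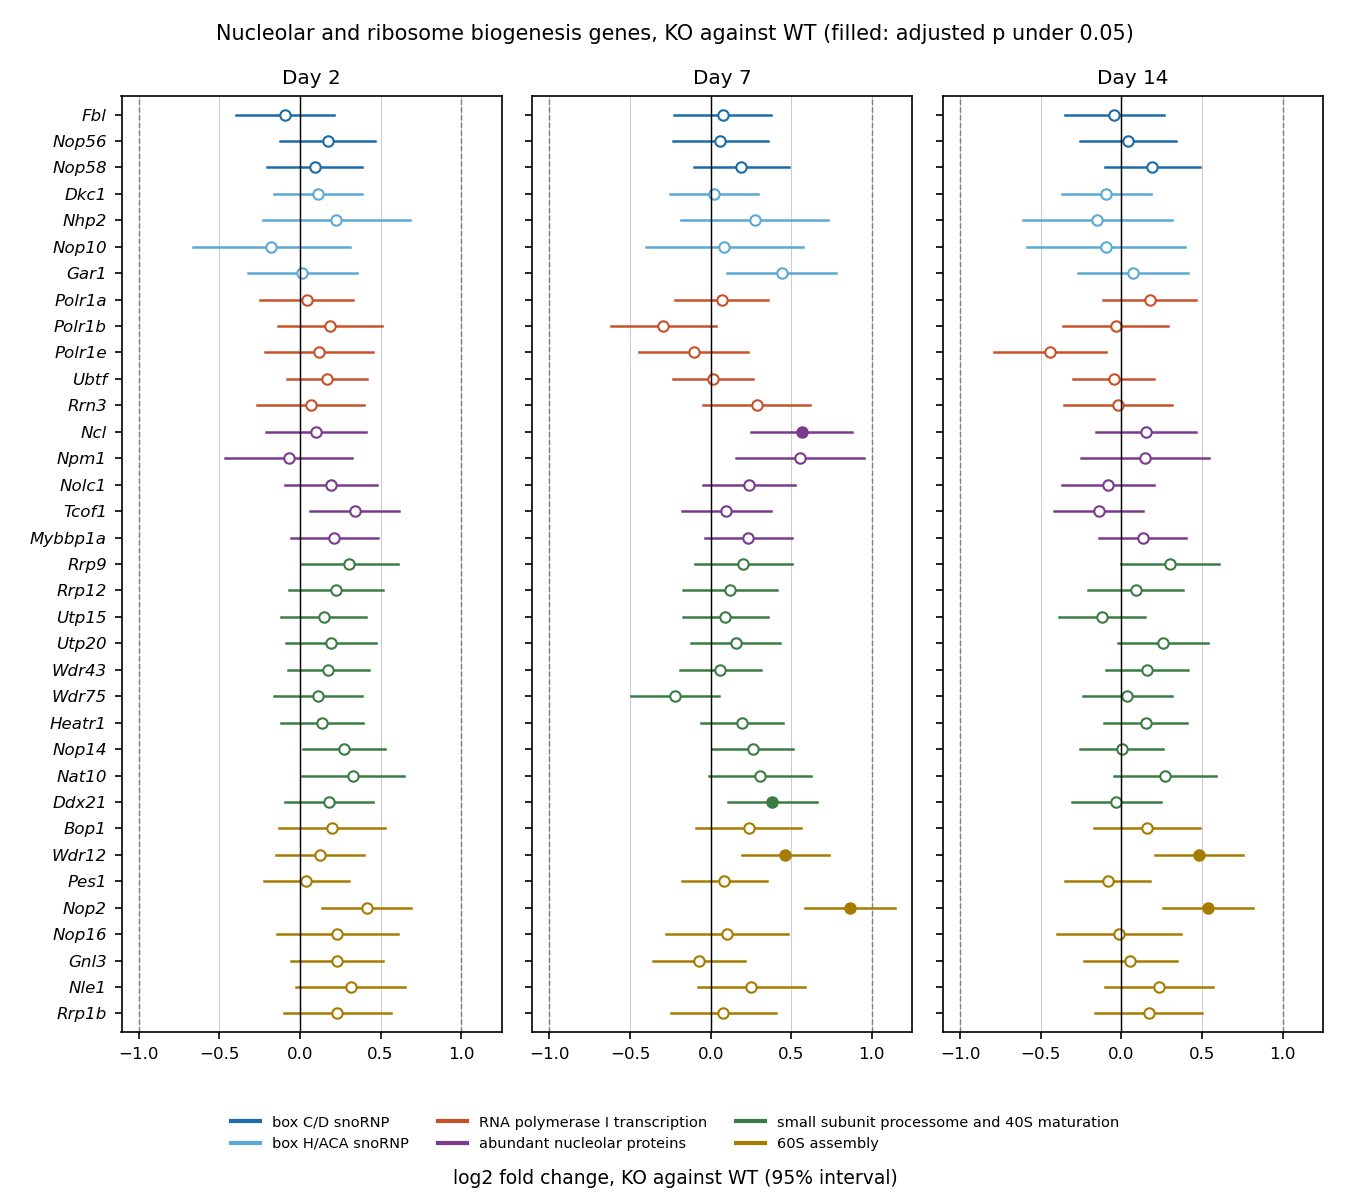
Log2 fold change of KO against WT for each of the 35 genes (points) with its 95% interval (lines), on days 2, 7 and 14, coloured by role; filled points passed an adjusted p under 0.05 and dashed lines mark -1 and 1. Most points lie to the right of 0 on days 2 and 7, and Nop2 on day 7 has the only interval that crosses a dashed line.

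**Figure D4:**
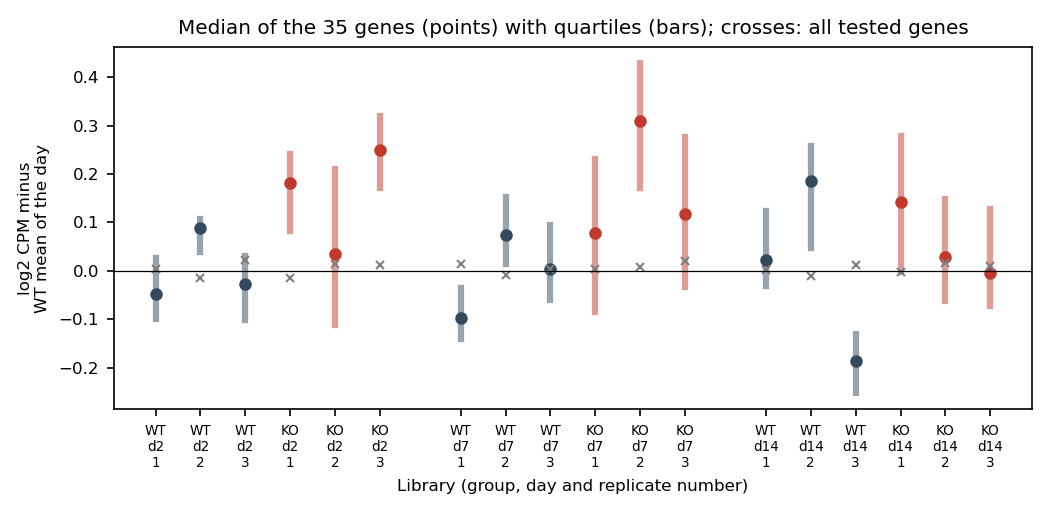
Median of the 35 genes in each library (points) with quartiles (bars), as log2 CPM minus the WT mean of the same day, WT in dark blue and KO in red; crosses are the median of all tested genes. The WT libraries of day 14 span -0.19 to 0.19 and enclose the KO libraries of that day, while all KO libraries of days 2 and 7 lie above 0.

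Time after tamoxifen was compared within WT crypts, and both comparisons share the WT libraries of day 2. The model held no term for sex, and the part of sex in comparisons between days was not tested. Neither day 7 nor day 14 gave a call among the 35 by edgeR, where 0.553% and 1.61% of all tested genes were called. An unadjusted p under 0.05 was found for 5 genes on day 7 and 4 on day 14, against 22.4% and 20% of all tested genes, and DESeq2 called 0 and 1, where it called 8.33% and 8.12% of the genes it tested. The 1 gene was Tcof1, which measured 28.4, 33.6 and 35.1 CPM on day 2 and 50.2, 50.2 and 38.4 CPM on day 14 in WT (log2 fold change 0.51, adjusted p = 0.0515, edgeR). Nle1, a 60S assembly factor, was at 0.47 on both days, and Npm1 was at -0.54 on day 7 and -0.42 on day 14. For comparison, the highest KO effects among the 35 were 0.41, 0.87 and 0.54 on days 2, 7 and 14, each for Nop2.

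The KO effect itself was compared between days. None of the 35 differed between days 7 and 2 by edgeR or DESeq2, where 4.37% of all tested genes did by edgeR and 6.59% by DESeq2, and 4 had an unadjusted p under 0.05, against 18.1% of all tested genes: Nop2, Npm1 and Ncl with a higher KO effect on day 7, and Polr1b with a lower one. Between days 14 and 7 none differed by either tool, where edgeR called 0 of all 21349 genes tested (4.46% at an unadjusted p under 0.05) and DESeq2 called 0.0101%. Ddx21 alone among the 35 had an unadjusted p under 0.05 there, at -0.41 on the log2 scale.

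A wider set of 131 genes of ribosome assembly, all of which passed the filter, gave the background of the pathway. On day 2, 0 of them were called and 9 had an unadjusted p under 0.05, against 3.33% of all tested genes. Their median log2 fold change that day was 0.10. Values lay above 0 in 49 of 59 further 60S genes, 42 of 52 processome genes, 8 of 10 snoRNP genes and 7 of 10 RNA polymerase I genes. On day 7, 11 were higher and 2 lower, 9.92% in all against 17.3% of all tested genes, with a median of 0.14. On day 14, 1 was higher and 2 lower, 2.29% against 7.92%. Among 59 further genes of 60S assembly 7 were higher on day 7 and none lower, led by Rbm28 at 0.48 (adjusted p = 0.00392) and Ebna1bp2 at 0.48 (adjusted p = 0.00418) by edgeR, both factors of early 60S precursors. Among 52 further processome genes Rrp36 at 0.54 and Mphosph10 at 0.42 were higher on day 7. On day 14 Mettl5, an adenosine methyltransferase of the small ribosomal RNA, was the only one of these 52 called, at 9.27 to 9.49 CPM in KO and 13.9 to 18.4 CPM in WT (log2 fold change -0.77 ± 0.18 (SE), adjusted p = 0.00929, edgeR). Among 10 further RNA polymerase I genes none was called on any day. The single 60S gene called on day 14 was Mdn1, at 0.58, the large ATPase that strips factors from 60S precursors.

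Of 10 further snoRNP core and assembly genes, 2 were higher and 2 lower on day 7, where 7.11% and 10.2% of all tested genes were called in those directions, and on day 14 none was higher and 1 lower. Ruvbl1 and Rpap3, an ATPase and a cofactor of the R2TP chaperone complex, were higher on day 7 by 0.60 and 0.57 on the log2 scale. Pih1d1, another subunit of R2TP, was lower, at 10.3 to 12.4 CPM in KO and 25.6 to 30.8 CPM in WT (log2 fold change -1.24 ± 0.14 (SE), adjusted p = 5.92e-06, edgeR). The KO libraries of Pih1d1 lay far below the WT libraries on day 7, and again on day 14 at 12.4 to 14.6 against 25.6 to 35.2 CPM. On day 2 the log2 fold change of Pih1d1 was -0.098 and the groups overlapped. Pih1d1 and Prmt1 lie 168 kb apart on chromosome 7, at 45154303 to 45160065 and 44975989 to 44986568, and the part of that position in its values was not tested. Shq1, which protects Dkc1 before assembly, was lower by 0.69 on day 7, while Dkc1 itself was at 0.021.

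Noncoding host genes of snoRNAs, which carry snoRNAs in their introns, were called in both directions on day 7. Of the 15 that passed the filter, of 17 listed, 3 were higher on day 7 (Snhg5 at 0.77, Zfas1 at 0.59 and Snhg12 at 0.51) and 1 was lower (Snhg20 at -0.87), where 7.11% of all tested genes were higher and 10.2% lower. On day 14, 4 were higher, Zfas1 at 0.77, Snhg12 at 0.66, Snhg3 at 0.85 and Snhg5 at 0.63, and none was lower, where 3.23% and 4.69% of all tested genes were called in those directions. Of the 11 genes of the Myc network, whose best known member Myc drives transcription of nucleolar genes, Myc was at 0.32, 0.011 and 0.17 on days 2, 7 and 14 and was not called. Mycl was lower on day 7 (-1.44) and on day 14 (-0.63), and Mxi1 was higher on day 7 (0.96).

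Markers of cell types were compared in the same libraries. Over all tested genes, 7.11% were called higher and 10.2% lower on day 7, and 3.23% and 4.69% on day 14. On day 7, 8 of 10 stem cell markers and 7 of 7 Paneth cell markers were lower in KO, and 10 of 10 enteroendocrine markers were higher. The paper had named every enteroendocrine marker of this list as higher in KO crypts at the last time point of the series. The day 14 calls of that list were therefore known beforehand, and its day 7 calls are not an independent test. The summed level of the stem cell markers was 547 to 1237 CPM in KO and 1901 to 2535 CPM in WT, that of the Paneth cell markers 1511 to 4178 against 9401 to 15910 CPM, and that of the enteroendocrine markers 725 to 904 against 329 to 346 CPM. Enterocyte markers summed to 17494 to 27455 CPM in KO and 12383 to 14886 CPM in WT, with Fabp1 and Fabp2 called higher and Lct lower (-1.42) among 12. Stromal markers, 10 of 11 tested, had log2 fold changes above 0 in all 10 with a median of 0.49, Vim and Pecam1 were called higher, and their sums were 51.1 to 97.6 CPM in KO and 30.4 to 67.01 CPM in WT. Of 7 goblet cell markers Fcgbp and Clca1 were lower, of 20 proliferation markers Aurkb and of 9 epithelial markers Cdx1, and none of 11 immune cell markers was called. None of the tested markers was at 0 in any group, and none of any list was called on day 2. On that day the log2 fold change lay above 0 in 7 of 7 Paneth cell markers (median 0.41), in 7 of 7 goblet cell markers (median 0.31) and in 1 of 10 stromal markers (median -0.60). On day 14 the stem cell markers Smoc2 and Cdca7, the Paneth cell marker Ang4 and the goblet cell marker Clca1 were lower, the enterocyte marker Sis was higher, and no stromal, immune or epithelial marker was called. Values above 0 were found that day in 0 of 7 Paneth cell markers (median -1.19), 1 of 10 stem cell markers (median -0.31) and 10 of 12 enterocyte markers (median 0.69). The Paneth cell markers summed to 5932 to 7805 CPM in KO and 9753 to 21933 CPM in WT. All 10 enteroendocrine markers were again higher, with sums of 847 to 989 against 298 to 362 CPM, and 4 of 20 proliferation markers (Bub1, Aurkb, Ccnb2 and Top2a) were lower, with sums of 1310 to 1485 CPM in KO and 1580 to 2023 CPM in WT. The part of these cell types in the values of the 35 genes, those of Nop2, Wdr12, Ncl and Ddx21 included, was not tested.

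Promoter sequence was available for 30 of the 35 genes, from RefSeq on GRCm38.p6. The 250 bases before the annotated start are shown for the 4 called genes, 5′ to 3′ on the strand of the gene, since they were the members called in a comparison of KO with WT. For Wdr12, which has 3 annotated starts, the window with the most annotated transcript starts within 50 bases of its own (3 of 8) is shown. Annotated transcript starts were taken from an earlier GENCODE release than that of the counts. In it no transcript of Ncl starts within 50 bases of the RefSeq start used here. Capitals mark every match, on either strand, to the letters CACGTG (the E-box bound by Myc and its partners), CCGGAAG (an ETS core) and GGGCGG (a GC box).
Nop2, chr6:125131633-125131882, plus strand: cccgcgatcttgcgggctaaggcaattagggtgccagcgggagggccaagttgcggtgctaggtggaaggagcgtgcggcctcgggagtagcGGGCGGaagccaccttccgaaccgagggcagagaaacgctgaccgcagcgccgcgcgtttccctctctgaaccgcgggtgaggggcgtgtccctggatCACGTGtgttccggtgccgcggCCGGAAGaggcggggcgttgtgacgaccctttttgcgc
Wdr12, chr1:60098135-60098384, minus strand: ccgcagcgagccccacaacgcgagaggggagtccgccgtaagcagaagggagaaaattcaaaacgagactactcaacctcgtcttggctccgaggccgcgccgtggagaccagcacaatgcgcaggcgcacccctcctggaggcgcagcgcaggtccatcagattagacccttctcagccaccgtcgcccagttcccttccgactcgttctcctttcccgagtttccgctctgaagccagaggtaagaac
Ncl, chr1:86359456-86359705, minus strand: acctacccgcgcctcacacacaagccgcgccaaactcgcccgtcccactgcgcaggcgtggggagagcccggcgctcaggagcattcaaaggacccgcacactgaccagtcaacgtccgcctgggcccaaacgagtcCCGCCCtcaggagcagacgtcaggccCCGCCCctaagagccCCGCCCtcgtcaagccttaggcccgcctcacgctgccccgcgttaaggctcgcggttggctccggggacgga
Ddx21, chr10:62602299-62602548, minus strand: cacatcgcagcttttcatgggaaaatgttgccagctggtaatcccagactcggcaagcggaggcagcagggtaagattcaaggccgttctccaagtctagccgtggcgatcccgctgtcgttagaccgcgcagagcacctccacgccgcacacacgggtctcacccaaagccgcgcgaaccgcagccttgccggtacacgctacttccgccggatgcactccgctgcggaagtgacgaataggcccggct

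None of these motifs was found in all 4 windows. The Nop2 window held 1 match to CACGTG, 1 to CCGGAAG and 1 to GGGCGG, that of Ncl 3 matches to GGGCGG, and those printed for Wdr12 and Ddx21 none. Another of the 3 Wdr12 windows held 2 matches to GGGCGG. Over the 30 genes, and counting any of a gene's windows, CACGTG was found in 6.67%, CCGGAAG in 16.7% and GGGCGG in 63.3% of them. Among the 12259 tested genes with a window the shares were 9.12%, 13.9% and 58.3%, and over all 27025 genes with a RefSeq promoter they were 6.86%, 7.83% and 35.4%. The members with CACGTG were Nop2 and Rrn3. The letters describe the windows, and no binding was measured.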

How the data were processed

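RNA-Seq was performed on small intestinal crypts from 18 mice, in 6 groups of 3 by genotype and day, from ribosomal RNA-depleted total RNA. The deposited file is a table of raw gene counts, made by the authors from STAR 2.7.3 alignments to mm10 with featureCounts 1.6.4. Per the file headers the annotation was GENCODE release 23 for mouse, pairs were counted without regard to strand, pairs over several genes were counted for each, and pairs with several alignments were not counted. Of the 35 genes, 17 share exon bases with another gene, at most 8.12% of its exon bases. No columns of other samples were present.

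The 20 sex-specific genes that the study removed were left out. Low counts were filtered with filterByExpr (edgeR 4.0.16), libraries were scaled by TMM and the model was fitted over all 18 libraries with 1 mean per group (robust quasi-likelihood, R 4.3.3), and genes were called at an adjusted p under 0.05 in the quasi-likelihood test (Benjamini-Hochberg over 21349 genes). Intervals use the SE of the fitted log2 fold change and the t distribution of the fit, and CPM and FPKM were computed here from the counts. Replicates were compared and none were duplicates. The labels do not say that a replicate number marks a shared litter or day; deviations from the group means of same-numbered KO and WT libraries correlated at 0.16 to 0.23 in the 3 pairs of day 14, and at -0.16 to 0.38 over all 9 pairs. Alternatives were DESeq2 1.42.0's Wald test, its size factors, library totals without TMM, no filter, the 20 most abundant genes left out, the removed genes kept, only the groups compared, a replicate block and each library left out. The model was tested on simulated data. Near-identical copies were sought with blastn 2.17.0 at 95% identity over 200 bases against transcripts of an earlier GENCODE release than that of the counts. Python 3.11.15 with pandas 2.3.3, scipy 1.17.1 and matplotlib 3.10.9 made tables and plots.

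Named were all 35 genes by role and Prmt1, with the values of every library for the members called and for Tcof1, Npm1, Gar1 and Polr1e, added after their values were seen. For each further pathway list the rule was the 2 called genes of smallest adjusted p at days 7 and 14. More than these were named for the snoRNP assembly genes and the snoRNA host genes. The part of the naming rule for arginine-glycine repeats in the proteins could not be applied here. The genes, lists, motifs and tests were chosen with earlier results of these data known. Precision rests on the spread between 3 mice per group and, for genes of low counts such as Polr1e and Gar1, on counting error as well.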

Additional observations from a re-analysis of the deposited data

How the results depend on the processing

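With the replicate number as a block Ddx21 lost its call on day 7 (adjusted p = 0.0526, edgeR) and Npm1 gained one (0.0349), so 4 were called. With that block 0 were called on day 2 and the same 2, Nop2 and Wdr12, on day 14. Over all 21349 tested genes the block called 3 on day 2, 3498 on day 7 and 1572 on day 14. Prmt1 on day 2 was then at -0.88 with an adjusted p of 0.0531. The block changed no other call among the 35. Same-numbered KO and WT libraries correlated at over 0.1 in all 3 pairs on day 14 but in 2 of 3 on day 2 and 1 of 3 on day 7. In all, 6 of 9 KO libraries correlated best with their own number.

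Library totals in place of TMM moved the median of all tested genes on day 7 by -0.16, the median of the 35 to 0.0027, and the calls to 1 on day 7 and 1 on day 14, Nop2 each time. With library totals 3921 and 1656 of all 21349 tested genes were called on those days. On day 7 Ddx21 also lost its call with DESeq2's size factors, without a filter (where Npm1 gained one), with the 20 most abundant genes left out and with only the groups compared. On day 14, 1 (Nop2, with Wdr12 lost) was called without a filter and with only the groups compared. Over all tested genes these settings called 1818 of 39046 and 1252 of 19193 that day. For WT day 14 against day 2, 1 (Tcof1) was called with DESeq2, with its size factors, without a filter and with the 20 most abundant genes left out. Prmt1 on day 2 lost its call at -0.86 with library totals and at -0.89 with only the groups compared. Over all tested genes, library totals called 433 higher and 88 lower for WT day 7 against day 2 (54 and 64 with TMM) and 181 and 1126 for the KO effect of day 7 minus day 2 (285 and 649). WT day 7 against day 2 gave 19 calls (replicate block) to 1464 (DESeq2) against 118, and WT day 14 against day 2 gave 28 (only the groups compared) to 1367 (DESeq2) against 343. On day 2, KO against WT gave 3 to 16 against 7. The cause of these moves was not tested.

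With 1 library left out, day 7 gave 1 to 4 calls: 1 (Nop2) without WT replicate 1 or 3 and 2 without KO replicate 2. Day 14 gave 0 to 2, and 0 without KO replicate 1 or WT replicate 3. WT day 7 against day 2 gave 0 to 1 (Npm1, without WT replicate 2 of day 7), WT day 14 against day 2 gave 0 to 1, the KO effect of day 7 minus day 2 gave 0 to 1, and 0 were called on day 2 in every such fit. Over all tested genes these fits gave 3 to 4 calls on day 2, 2051 (without KO replicate 1) to 4117 on day 7, 1041 (without KO replicate 3, and 1091 without KO replicate 1) to 1334 on day 14, 0 (without WT replicate 1 of day 2 or 3 of day 7) to 535 (without WT replicate 2 of day 2) for WT day 7 against day 2, 22 to 712 for WT day 14 against day 2 (without WT replicates 1 and 2 of day 2) and 431 to 1295 for the KO effect of day 7 minus day 2 (without KO replicates 1 and 3 of day 7). The median of the 35 ran from 0.13 to 0.22 on day 2, 0.097 to 0.24 on day 7 and -0.021 to 0.14 on day 14. Prmt1 ran from -0.95 to -0.82 on day 2, with its call lost in all 6 fits, from -0.66 to -0.47 on day 7, lost without KO replicate 1, and from -0.85 to -0.55 on day 14. No called value changed its sign. The 95% intervals of the 35, before adjustment, reached 0.25 to 0.49 to each side on day 2, with a median of 0.29, and the median was 0.41 for differences between the KO effects of 2 days.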
